A study of Mus musculus with 9 samples.

Results

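RNA crosslinked to the export protein Chtop with exon 5 was compared with RNA crosslinked to Chtop without exon 5, over the coding sequence (CDS) of each gene. The comparison uses the 6 FLAG-Chtop immunoprecipitates of a series of 9 iCLIP libraries, 3 per isoform, and no input library enters the fit. All cells were N2a Flp-In rtTA, a mouse neuroblastoma line in which a FLAG-tagged cDNA is switched on by doxycycline (2 µg/mL for 24 hours here). One line carried FLAG-Chtop cDNA with exon 5, the other FLAG-Chtop cDNA without it. The labels name no change to the cells' own Chtop gene. Cells were crosslinked at 254 nm with 0.15 J/cm2, and RNA was recovered with an antibody against FLAG. The labels call the replicates independent and handled on different days. They do not say whether a line is 1 clone, nor how much of each FLAG protein the cells made. The lysates came from whole cultures, so more RNA per cell and more protein bound per RNA cannot be told apart.

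Chtop binds RNA through arginine-rich and glycine-rich stretches and is a part of TREX, the complex that loads spliced mRNA onto the export receptor Nxf1 at nuclear speckles and hands it to the nuclear pore. Exon 5 is an alternative exon of the Chtop mRNA, and the series was made to ask how including it alters what the protein binds. In iCLIP, reverse transcriptase tends to stop at the crosslinked base, so counts over a gene part measure RNA held by the protein there. These counts rise with the level of the RNA as well as with binding.

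The CDS libraries held 518384, 570092 and 910461 counts with exon 5 and 416001, 678357 and 1270224 without. Levels are given as CPM, which sets each count against its library's total, after TMM factors that correct for differences in library composition. Of 22442 genes in the table, 0 had a missing CDS value, 11479 had a count in the 6 libraries and 6214 passed the filter on low counts and were tested. A mean of at least 50 counts over the 6 libraries, called well counted here, was reached by 2837 genes, and they held 84.28% of all CDS counts. Across 2843 genes, which are not independent replicates, log CPM of library pairs correlated at 0.695 to 0.801 within an isoform and at 0.645 to 0.774 between isoforms. Of 13 markers of neuroblastoma and sympathetic neurons, 7 were named in the table and 6 had a count. Their summed level was 678 to 1027 CPM with exon 5 and 494 to 724 CPM without, with Prph (peripherin) and Hand2 the most counted and Nefl at 0. Of 10 named markers of other cell types, 8 were at 0 and the other two averaged at most 1 count. The summed level of all 10 came to 0 CPM in each library with exon 5 and to 0 to 12.1 CPM without.

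For 176 of the 226 coding sequences with a mean of 500 counts or more, the 95% interval of the difference stayed within 2-fold either way. For 40 of the 226 the interval excluded 0, without adjustment for the number of genes. Over all genes tested this was 402 of 6214 (6.47%), and intervals were narrower at high counts. The 10 named genes with the most CDS counts were Map1b, Srrm2, Kmt2d, Irs2, Plec, Prune2, Ahnak, Racgap1, Ubr4 and Dst. Per kilobase of CDS, on the CPM scale, Racgap1 (a GTPase-activating protein of the dividing cell's midzone) stood at 2471, Irs2 (an insulin receptor adaptor) at 1752, Srrm2 (a scaffold of nuclear speckles) at 1172 and Map1b (a microtubule-associated protein of axons) at 1138. The very long cytolinker Dst stood at 128. Of these 10, Map1b was the one whose groups did not overlap.

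With the quasi-likelihood F-test of edgeR, 0 of 6214 coding sequences (0%) passed an adjusted p of 0.05, and the smallest adjusted p was 0.345. At an unadjusted p under 0.05 there were 402 (6.47%), 207 higher with exon 5 and 195 lower. DESeq2 called 26 of 6766 (0.384%), 9 higher and 17 lower, and limma-voom called 7 of 6214 (0.113%), 3 higher and 4 lower. All 3 libraries with exon 5 lay above all 3 without for 409 tested genes (6.58%) and below them for 439 (7.06%). Among well-counted genes these were 221 (7.79%) and 218 (7.68%). The median log2 fold change, always with minus without exon 5, was -0.01 over the genes tested. By direction, 3076 of 6214 lay above 0. TMM scaling centres the differences near 0, so this even split and the median are not findings about the isoforms. A difference in the total RNA held by each isoform would not show in these relative levels. In what follows, a gene is described by its values, and none of the differences passed the adjusted threshold of edgeR.

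**Figure D1:**
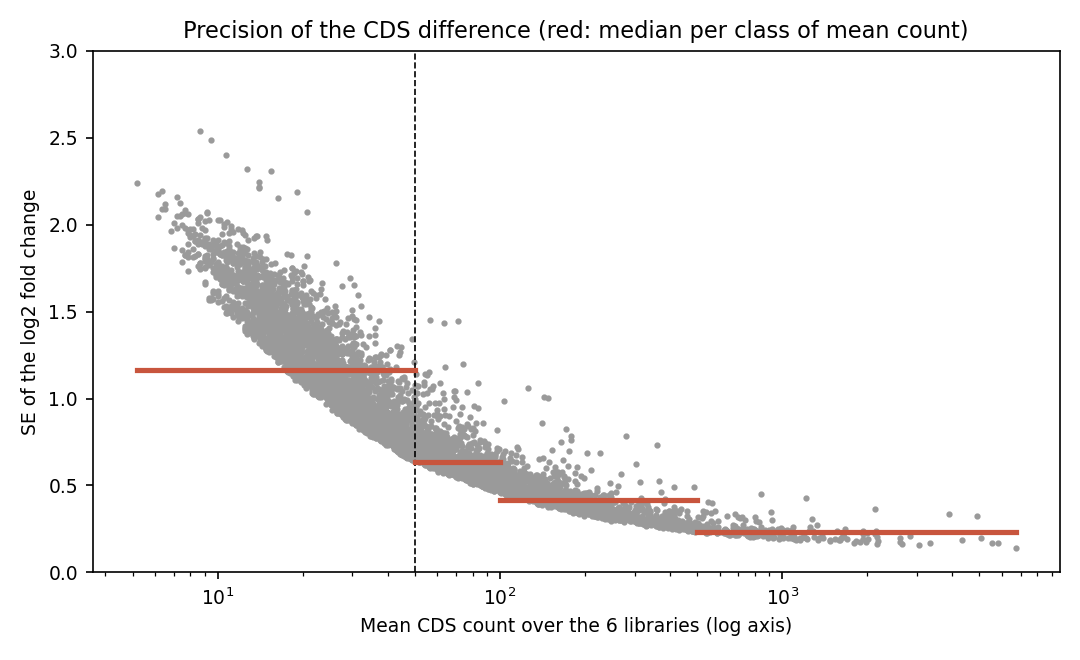
Standard error (SE) of the CDS log2 fold change between the isoforms (y axis) against the mean CDS count over the 6 libraries (x axis, log scale), 1 point per tested gene. The median SE, drawn as red lines, is 1.16 under 50 counts, 0.64 from 50 to under 100, 0.41 from 100 to under 500 and 0.23 at 500 or more, and the dashed line marks a mean of 50.

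How close the isoforms were can be said for part of the genes. The 95% interval of the log2 fold change lay within -1 and 1, that is within a 2-fold difference either way, for 522 of 2837 well-counted genes (18.4%). Of the 226 genes with a mean of 500 counts or more, 176 were inside that range, and of the 1350 genes with 100 or more but fewer than 500, 346. No gene under 100 counts was inside it, as the plot of SE by mean count shows. The typical spread between replicate libraries, as a biological coefficient of variation, was 0.278 for genes of 500 counts or more and 0.889 for genes under 50.

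The 5 named genes whose interval stayed closest to 0 were Srrm2, Prrc2c, Hectd4, Celsr3 and Syne2. Srrm2 was at 8269, 9720 and 9578 CPM with exon 5 and at 9282, 9956 and 10548 CPM without (log2 fold change -0.11, 95% interval -0.41 to 0.18). Prrc2c, a large RNA-binding protein of stress granules, was at 3141 ± 133 CPM with exon 5 and 3101 ± 41.3 without (SD, n = 3 each; log2 fold change 0.02, interval -0.33 to 0.36). The HECT-domain protein gene Hectd4 had a log2 fold change of 0.05 (-0.32 to 0.42) and Celsr3, an adhesion receptor of axon guidance, -0.02 (-0.42 to 0.38). Syne2, a giant linker of the nuclear envelope to the cytoskeleton, had 0.06 (-0.30 to 0.43). The groups overlapped for all 5. The histone methyltransferase gene Kmt2d (-0.08, interval -0.44 to 0.28), Ubr4 (0.13, -0.20 to 0.47), Racgap1 (-0.12, -0.49 to 0.24) and Prune2 (-0.12, -0.51 to 0.27) were also inside a 2-fold range.

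**Figure D2:**
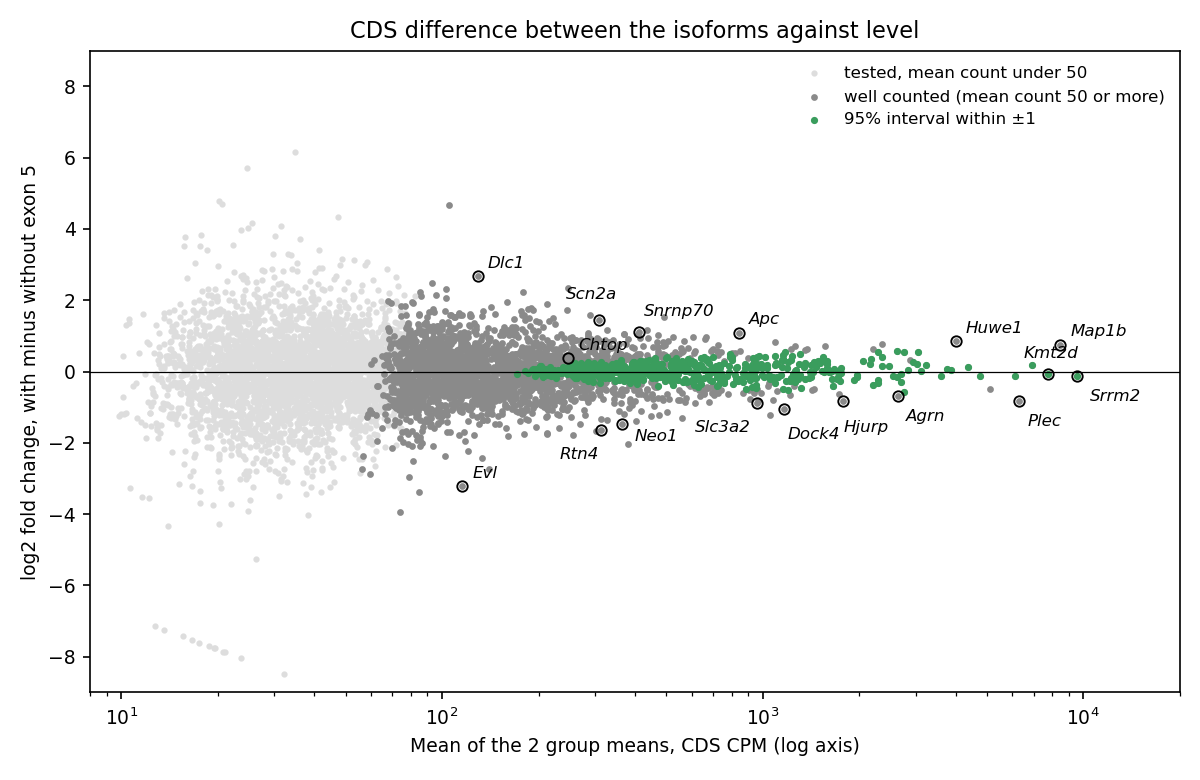
CDS log2 fold change with minus without exon 5 (y axis) against the mean CDS level in CPM (x axis, log scale) for 6214 tested genes. Green points are the 522 genes whose 95% interval lies within -1 and 1, circled genes are named in the text, and the points near the bottom left are genes with no count in any library with exon 5.

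The gene for the protein under study, Chtop (ENSMUSG00000001017.15), has a CDS of 831 bases and lies on chromosome 3 at 90498539 to 90509527 (GRCm38). Its CDS was at 326, 214 and 299 CPM with exon 5 and at 252, 217 and 178 CPM without. The ranges overlapped, and the log2 fold change was 0.38 (SE 0.37, edgeR adjusted p = 0.978). Counts per CDS do not tell cDNA from the cells' own mRNA or exon 5 from its absence, so this does not check the labels.

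Among deeply counted genes, the clearest excess with exon 5 was on Huwe1, a HECT-type ubiquitin ligase (ENSMUSG00000025261.18, chromosome X, 151800785 to 151935417, CDS of 13446 bases). Its CDS was at 5242, 5584 and 4614 CPM with exon 5 and at 2946, 2980 and 2615 CPM without. The lowest library with exon 5 was well above the highest without. The log2 fold change was 0.85 (SE 0.16, 95% interval 0.51 to 1.20), with an edgeR p of 8.43e-05 that became 0.345 after adjustment.

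Map1b (ENSMUSG00000052727.6, chromosome 13, 99421464 to 99516602) was at 8242, 12267 and 11449 CPM with exon 5 and at 5559, 6838 and 6476 CPM without. Again the groups did not overlap, with library 1 the lowest of each, and the log2 fold change was 0.76 (SE 0.17, interval 0.41 to 1.11, edgeR adjusted p = 0.345). Zfhx4, a zinc finger homeobox factor, was at 2279, 3324 and 3330 CPM with exon 5 against 1478, 1751 and 1999 CPM without (log2 fold change 0.77, interval 0.34 to 1.20). Apc, the scaffold that holds beta-catenin for destruction and binds microtubules, was at 865, 1237 and 1346 CPM against 401, 582 and 628 CPM (log2 fold change 1.10, interval 0.55 to 1.65, edgeR adjusted p = 0.418). For each of these genes every library with exon 5 was above every library without.

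Several genes at lower counts stood further apart. Dlc1, a GTPase-activating protein, was at 175, 196 and 298 CPM with exon 5 and at 47.1, 24.2 and 34.1 CPM without, on raw counts of 91, 104 and 258 against 20, 16 and 39 (log2 fold change 2.67, SE 0.55, edgeR adjusted p = 0.345). Scn2a, the pore subunit of a neuronal sodium channel, was at 528, 449 and 383 CPM against 134, 150 and 208 CPM (1.46, SE 0.34, edgeR adjusted p = 0.418). Snrnp70, the 70K protein of the U1 snRNP, had tight groups, with 590, 545 and 554 CPM against 297, 239 and 250 CPM (1.10, SE 0.29, edgeR adjusted p = 0.418). Kbtbd7, an adaptor of a cullin ubiquitin ligase, had 46, 54 and 15 counts with exon 5 and 0, 0 and 2 without, too few for a firm fold.

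On the other side, Dock4, which activates the GTPase Rac (ENSMUSG00000035954.10, chromosome 12, 40445957 to 40846874, CDS of 5934 bases), was at 624, 810 and 825 CPM with exon 5 and at 1275, 1756 and 1684 CPM without. Its log2 fold change was -1.06 (SE 0.22, interval -1.54 to -0.59, edgeR adjusted p = 0.345), and the groups were far apart relative to their spread. Neo1, the receptor neogenin for netrins and repulsive guidance molecules, was at 212, 145 and 219 CPM against 566, 453 and 593 CPM (-1.48, SE 0.32, edgeR adjusted p = 0.345). Rtn4, the reticulon known as Nogo, was at 112, 97.8 and 248 CPM against 410, 489 and 527 CPM (-1.63, SE 0.39, edgeR adjusted p = 0.418).

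Agrn (agrin, an organiser of synapses) and Hjurp (the chaperone that places the centromeric histone) were counted deeply, and their groups also stayed apart. Agrn was at 2077, 2089 and 1922 CPM with exon 5 and 2807, 3352 and 3588 CPM without (log2 fold change -0.68, interval -1.05 to -0.30). Hjurp was at 1127, 1156 and 1575 CPM against 1986, 2395 and 2456 CPM (-0.83, interval -1.26 to -0.39). Of 16 alternative settings, Huwe1, Map1b and Dock4 were called in 5 and Agrn, Hjurp, Neo1 and Rtn4 in 4. Apc and Zfhx4 were called in 3. These settings refit the same libraries, so the tally is no separate support. For each of these genes some calls came from fits with the replicate number as a block. Those numbers were not taken to pair the libraries. Of the genes given library by library above, Huwe1, Dock4, Neo1, Rtn4, Apc, Agrn, Hjurp, Zfhx4 and Kbtbd7 were singled out after their values were seen.

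**Figure D3:**
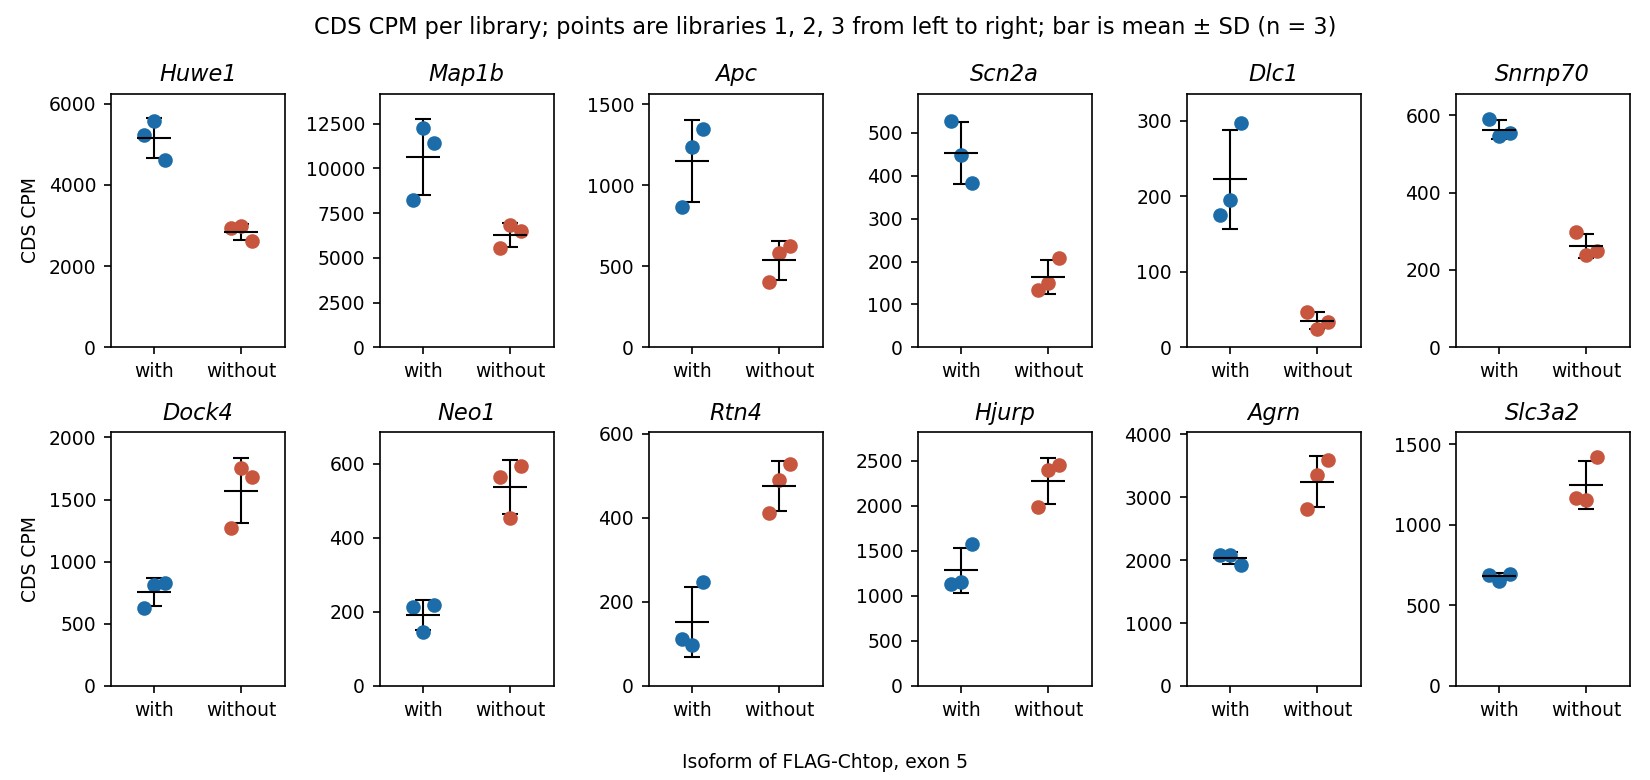
CDS level in CPM (y axes, each from 0) of 12 genes in the 3 libraries with exon 5 (blue) and the 3 without (red). Points are libraries, and the bar and whiskers are mean ± SD. In each panel the libraries with and without exon 5 do not overlap, as for Huwe1 (4614 to 5584 against 2615 to 2980 CPM).

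Well-counted genes whose groups did not overlap were also ranked by log2 fold change, which describes the extremes and tests nothing. The 10 highest were Dlc1 (2.67), the sphingosine kinase gene Sphk2 (2.30), the endoplasmic reticulum lectin gene Os9 (2.23), the anion channel subunit gene Lrrc8d (2.14) and the G protein subunit gene Gnb2 (2.07), followed by the neuronal leucine-rich repeat gene Lrrn3 (1.94), Tbc1d17 (1.92), the amino acid transporter gene Slc36a1 (1.83), Dcaf5 (1.80) and the cannabinoid receptor gene Cnr1 (1.75). The 10 lowest were the actin regulator gene Evl (-3.21), Phactr4 (-2.94), Cdk17 (-2.50), the amino acid transporter gene Slc7a6 (-2.38) and Aup1 (-2.23), which acts in lipid droplets and protein degradation. They ended with Cyfip2 of the actin-regulating WAVE complex (-2.14), the imprinted gene Mest (-2.09), the lysosomal sulfatase gene Galns (-2.08), Git1 (-2.08) and the centriole gene Cep135 (-2.03). Their edgeR adjusted p-values ran from 0.345 for Dlc1 to 0.716 for Slc7a6.

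Many of these extremes rested on uneven libraries. Evl had 5, 12 and 29 counts with exon 5 and 164, 132 and 45 without. Cdk17 had 23, 11 and 8 against 27, 38 and 333, so 1 library held most of its counts. Lrrn3 was more even, at 326, 263 and 170 CPM against 68.3, 69.7 and 59.5 CPM, and so was Aup1, at 38.5, 33.8 and 54.2 CPM against 130, 195 and 271 CPM.

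The differences were then read by function in 29 gene lists with tested members, none of which held a member past the adjusted edgeR threshold. Each list is given by how many tested members lay above 0 and its median, beside 3076 of 6214 above 0 and a median of -0.01 over all genes tested. Counts of members without overlap are over well-counted members unless said otherwise, beside 7.79% higher and 7.68% lower of all well-counted genes. Of 110 named genes with a log2 fold change of at least 0.5 in size, 21 dropped below 0.5 times that value, or turned, without 1 library. Members of a list are not replicates, and lists share some genes.

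mRNA export factors had a median close to that of all genes tested. Of 19 tested members 7 lay above 0, with a median of -0.06. Xpo1, the exportin of proteins and of some RNAs, was the most counted and lay at 1971, 1545 and 1361 CPM with exon 5 against 1155, 1241 and 836 CPM (log2 fold change 0.59, interval 0.11 to 1.07), with no overlap. The cap-binding gene Ncbp1 had 0.44 and the helicase gene Ddx19b -1.49, both with overlap. Ncbp1 had -0.080 without library 3 with exon 5, and Ddx19b had -0.66 without library 3 without exon 5.

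Nuclear pore and import genes had members apart on both sides. Of 34 tested members 19 lay above 0 (median 0.20). Of 31 well-counted ones, 6 were higher with exon 5 without overlap and 3 lower. Ranbp2, the giant nucleoporin on the cytoplasmic face of the pore, was at 2950, 3194 and 3678 CPM against 1772, 2468 and 2469 CPM (0.55, interval 0.15 to 0.95). The exportin gene Xpo7 had a log2 fold change of 1.41, and the exportin gene Xpo4 (-1.17) and the scaffold nucleoporin gene Nup205 (-0.73) lay the other way, all without overlap.

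Splicing genes showed no common direction. SR proteins and speckle scaffolds had 13 of 31 members above 0 (median -0.11), with Srrm3 at 0.82, Srsf1 at 0.99 and Srsf10 at 0.79, of which Srsf10 had no overlap. Without library 1 with exon 5, Srrm3 had -0.14. Of 23 well-counted members 1 was higher and 2 were lower without overlap. In the core spliceosome 14 of 28 lay above 0 (median -0.01), and 3 of 18 were higher and 2 lower without overlap. Snrnp70 and the SF3A subunit gene Sf3a1 (1.11) were higher, and Xab2 (-1.18) lower, without overlap. The GTPase gene Eftud2, the most counted there, had -0.64 with overlap. Among hnRNPs and splicing regulators 15 of 38 lay above 0 (median -0.09), and 2 of 29 were higher and 2 lower without overlap. Hnrnpul1, the most counted of them, had 0.96 with overlap (0.32 without library 2 with exon 5), Mbnl1 (1.28) and Pspc1 (1.23) were higher, and Hnrnpdl was lower (-1.24). Hnrnpdl had 160, 137 and 203 counts with exon 5 and 186, 263 and 1196 without, so its distance rests largely on 1 library.

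Cleavage and polyadenylation genes, which make the mRNA 3′ end, lay mostly on the side of exon 5. Of 20 tested members 17 were above 0 and the median was 0.29, yet 0 of 13 well-counted members had groups that did not overlap. Cstf2, the RNA-binding subunit of the cleavage stimulation factor, had 27, 75 and 245 counts with exon 5 and 6, 35 and 19 without (2.5, SE 0.77, edgeR adjusted p = 0.467). Its near copy Cstf2t had 0.87, Cpsf7 1.22 and the Integrator gene Ints1, the most counted, 0.30, all with overlap. Cpsf7 had 0.0023 without library 2 with exon 5. Reads of Cstf2 and Cstf2t may be hard to assign between them, and the sources used here do not say how such reads were treated.

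Zfp zinc finger genes, the list with the most tested members, also lay mostly above 0. Of 171 tested members 115 were above 0, with a median of 0.34, and 17 had no overlap on the higher side and 6 on the lower. Of 61 well-counted members 5 were higher and 2 lower without overlap. Zfp316 was at 162, 162 and 159 CPM against 47.1, 72.7 and 72.6 CPM (1.32). Zfp329 had 1.30 without overlap, Zfp26 had 1.32 and the most counted, Zfp462, 0.40, both with overlap. Many of these genes have similar repeats, so their counts may be shared between copies.

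Genes of synapse and axon had 23 of 41 members above 0 (median 0.18) and 7 well-counted members higher against 3 lower without overlap. Besides Map1b they included Lrrn3 and Cnr1, the latter at 304, 290 and 265 CPM against 30.6, 84.8 and 135 CPM. Syn1, a synaptic vesicle gene, had -2.73 with overlap. Ion channel genes had 14 of 26 above 0, and the median difference of ion channels was 0.08, or -0.0022 with the length trend removed. Among them 4 were higher and 2 lower without overlap. Scn2a and its neighbour family member Scn3a (0.94) were on the higher side, and the most counted, the calcium channel gene Cacna1b, had -0.01.

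Neuroblastoma and sympathetic neuron genes had 10 of 12 above 0 (median 0.42), and 3 of 9 well-counted members were higher without overlap. One was the transcription factor gene Hand2, at 198, 122 and 196 CPM against 101, 92.4 and 56 CPM (1.06). The neuropeptide genes lay the other way. Vgf was at 272, 442 and 1198 CPM against 1228, 1097 and 2095 CPM (-1.21), and Scg2 had -1.36, both with overlap.

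Among secretory pathway and membrane glycoprotein genes, more of the well-counted members without overlap were lower with exon 5 than higher. Of 38 tested members 16 were above 0 (median -0.16), and 5 of 33 well-counted members were lower and 1 higher without overlap. Copb1, a coat subunit of Golgi vesicles, was at 162, 231 and 156 CPM with exon 5 and 264, 576 and 567 CPM without (-1.36). Copa of the same coat had -1.08 and the golgin gene Golgb1, the most counted, -0.40, both with overlap.

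Solute carriers had 37 of 94 members above 0 (median -0.18), with 3 of 44 well-counted members higher and 5 lower without overlap. Slc3a2, the heavy chain of amino acid transporters, was at 688, 654 and 696 CPM against 1169, 1153 and 1420 CPM (-0.88, interval -1.34 to -0.42). Both groups were tight. Slc7a6, a light chain that pairs with it, had -2.38 on 20, 33 and 0 counts against 29, 243 and 88, and the zinc transporter gene Slc30a9 had -1.27.

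Chaperones had 6 of 25 members above 0 (median -0.24), and 2 of 15 well-counted ones were lower without overlap. Those were the mitochondrial Hsp70 gene Hspa9, at 129, 105 and 79.6 CPM against 170, 248 and 381 CPM (-1.36), and Bag6 (-0.88). The endoplasmic reticulum chaperone genes Hspa5 (-0.96) and Hsp90b1 (-0.05) overlapped. In oxidative phosphorylation 3 of 11 lay above 0 (median -0.62), with Cyc1 at -1.14 without overlap, and Cox4i1 (-1.17, or 0.36 without library 3 without exon 5) and Atp5b (-0.62) with overlap. Most members of that list were too sparse to be well counted, with 3 of 11 reaching that level.

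Chromatin regulators, which took 5.08% to 5.37% of the CDS counts of a library, were balanced, with 47 of 85 above 0, a median of 0.05, and 7 higher and 6 lower without overlap. The DNA methyltransferase gene Dnmt3a had 1.57 without overlap, Mbd5 1.58 with overlap and Bcorl1 -1.92 without overlap. DNA repair and replication genes had 29 of 48 above 0 (median 0.15), with Atrx at 0.32, Xrcc6 at 0.95, Palb2 at 1.40 and Lig3 at -0.94, all with overlap. Palb2 had 0.041 without library 1 with exon 5. Of 34 well-counted members of that list 3 were higher and 3 lower without overlap. Cell cycle and mitosis genes had 11 of 33 above 0 (median -0.12) and 0 without overlap in either direction. Among them were the proliferation marker gene Mki67 (-0.24), the kinetochore scaffold gene Knl1 (0.66), Anln (-0.88) and the spindle gene Tpx2 (-1.93).

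Motors and cytolinkers had 17 of 34 above 0 (median -0.0039), with 7 higher and 3 lower without overlap. Plec (plectin), the most counted, was at 2726, 5931 and 5033 CPM against 4343, 8735 and 11183 CPM (-0.83, interval -1.53 to -0.12) and overlapped. In both groups library 1 was the lowest for Plec, as it was for Ahnak (2202, 5070 and 5509 against 3408, 7085 and 7495 CPM). Talin gene Tln2 (1.56) was higher and the kinesin gene Kif7 (-1.35) lower without overlap, and the dynein gene Dync1i2 had 1.34 with overlap.

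Ubiquitin ligases and proteases had 27 of 54 above 0. The median difference of ubiquitin ligases and proteases was 0.0033 and turned to -0.035 with whole-gene library sizes and to -0.047 with the length trend removed. Of 41 well-counted members 5 were higher and 3 lower without overlap. Huwe1, Ube3c (1.27) and Usp31 (0.90) were among the higher and Usp19 (-0.90) among the lower. Transcription and Mediator genes had 22 of 40 above 0 (median 0.02), and 3 of 35 were higher and 1 lower without overlap. Polr3b had 1.62 without overlap. Med1 (1.59), Cdk8 (1.62) and the most counted, Zfhx3 (0.26), overlapped. Med1 had 117, 511 and 102 counts with exon 5, so 1 library held most of them. RNA granule and decay genes had 26 of 47 above 0 (median 0.07), and 1 of 37 was higher and 3 lower without overlap. There Hdlbp (vigilin, an RNA-binding protein of the secretory pathway) was lower, at 158, 179 and 196 CPM against 269, 436 and 426 CPM (-1.09). Cnot3 had 1.88 on 51, 32 and 730 counts against 19, 80 and 119, and -0.25 without the library of 730. Skiv2l had 0.98 and Atxn2l, the most counted, 0.20, each with overlap.

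Genes without introns and immediate-early genes split. Of 18 tested members 6 lay above 0 (median -0.13), and 3 of 11 well-counted members were higher and 2 lower without overlap. The forkhead gene Foxd1 was at 414, 274 and 295 CPM against 99, 167 and 83.1 CPM (1.5), and Myc (1.75) and Sox12 (1.38) were also higher without overlap, while the most counted, Irs2, overlapped (0.17). MAP kinase genes had 23 of 35 above 0 (median 0.23), and 1 of 15 was higher and 2 lower without overlap, with Map3k13 at 1.71 and Map3k4 at -1.07 without overlap, and Map3k3 at 1.05 and Map4k4 at 0.41 with overlap. DEAD and DEAH box helicases had 22 of 39 above 0 (median 0.09), with Ddx5 at 0.10, Ddx24 at 1.20 and Ddx11 at -0.71, all with overlap. Ddx24 had 0.015 without library 2 with exon 5. Of 22 well-counted helicases 1 was higher and 0 lower without overlap.

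The remaining lists were small. Translation factors had 13 of 26 above 0, and the median difference of translation factors was -0.02, or 0.02 with the length trend removed. The initiation scaffolds Eif4g2 (0.58) and Eif4g3 (0.52) were higher without overlap, while Eif4g1 (0.13) and Eif3b (0.47) overlapped. Proteasome genes had 4 of 13 above 0 (median -0.32), with the activator gene Psme4 (0.49) higher without overlap and Psmd11 at 0.22. Arginine methylation genes, whose enzymes act on proteins such as Chtop, had 4 of 8 above 0 (median 0.13), with Carm1 at 0.48, Prmt6 at -0.52 and Prmt7 at -0.32. Cytosolic ribosomal protein genes had 6 of 14 above 0 (median -0.30). Rpl4 had 0.65, and of the Rps15 counts 413 lay in 1 library without exon 5. Histone genes had 2 of 6 above 0 (median -0.45), with the linker histone genes H1f5 at 0.84 without overlap, H1f0 at -0.56 and H1f4 at -0.71.

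**Figure D4:**
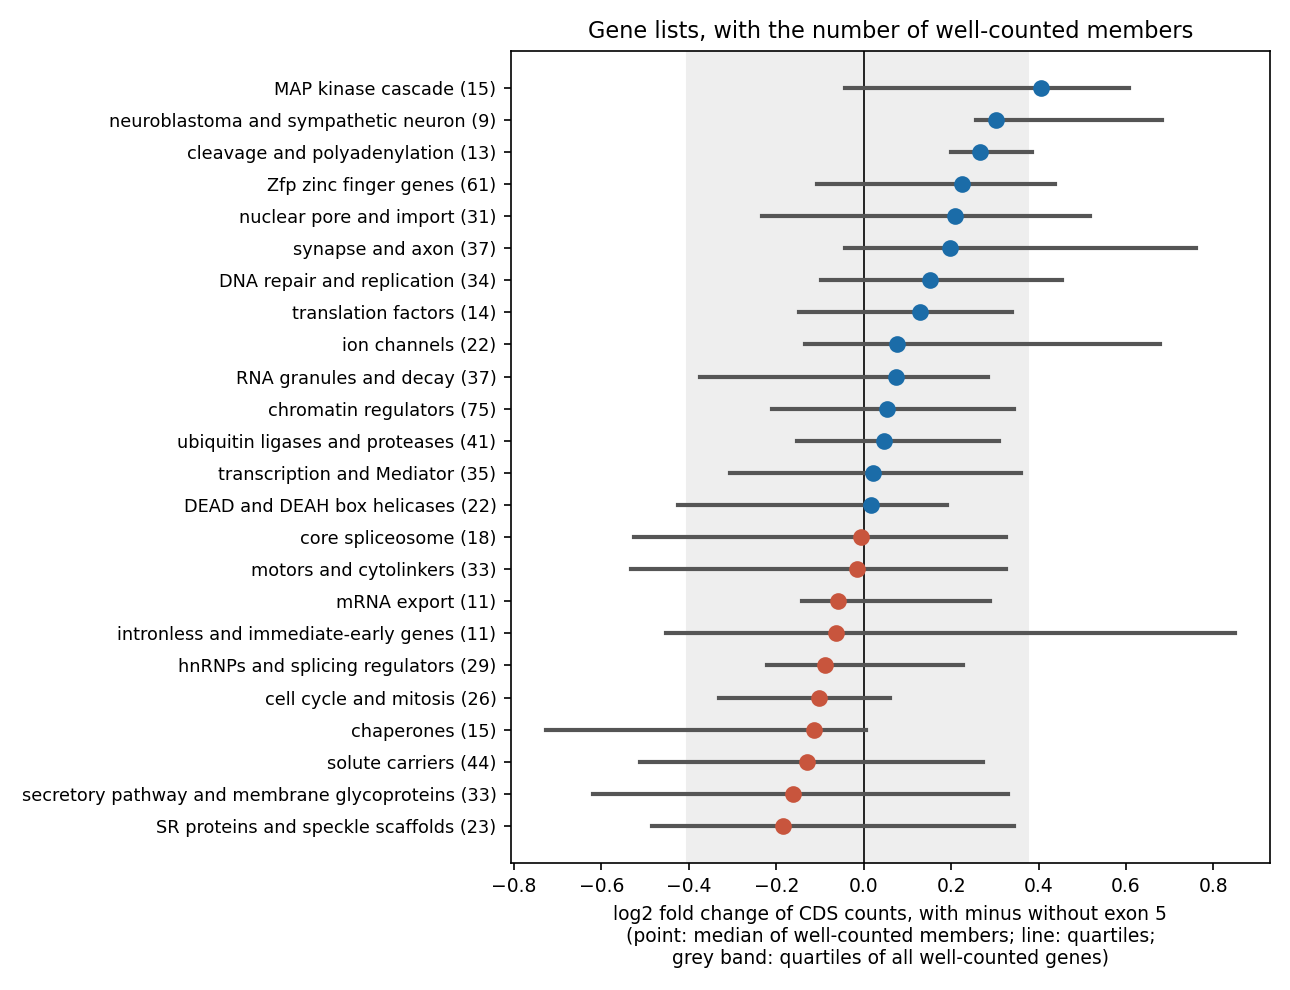
Median (points) and quartiles (lines) of the CDS log2 fold change with minus without exon 5 over the well-counted members of 24 gene lists with at least 9 such members (number in brackets), with blue for medians above 0. The grey band gives the quartiles of all 2837 well-counted genes, -0.41 to 0.38, and every list median except that of MAP kinase genes (0.41) lies inside it.

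The share of a library's CDS counts taken by a list gives a second view, in which the most counted members weigh most. Of 29 lists, 7 had higher shares in all 3 libraries with exon 5 than in all 3 without, 3 had lower shares and 19 overlapped. Where isoform labels do not matter, 3 libraries separate fully from 3 others, in either direction, with a probability of 0.10. Lists share genes, and these counts were not tested. Synapse and axon genes took 2.47%, 2.82% and 2.87% with exon 5 and 2.01%, 2.22% and 2.22% without, and Map1b is the most counted of them. Zfp genes took 2.12%, 2.34% and 2.06% against 1.94%, 1.86% and 1.70%. Nuclear pore genes took 1.21%, 1.18% and 1.14% against 1.06%, 0.989% and 0.996%. On the lower side, secretory genes took 0.996%, 1.17% and 1.12% against 1.24%, 1.31% and 1.35%, and solute carriers 0.943%, 0.968% and 0.922% against 1.05%, 1.10% and 1.10%. The synapse and axon distance, 2.71% against 2.15% on average, was mostly Map1b. Without it the list took 1.64%, 1.67% and 1.78% against 1.44%, 1.55% and 1.64%, a difference of 0.152 percentage points, and the groups overlapped. Without the most counted member of each list, 4 of the 10 lists still had no overlap, which were Zfp, cleavage and polyadenylation, secretory and solute carrier genes.

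**Figure D5:**
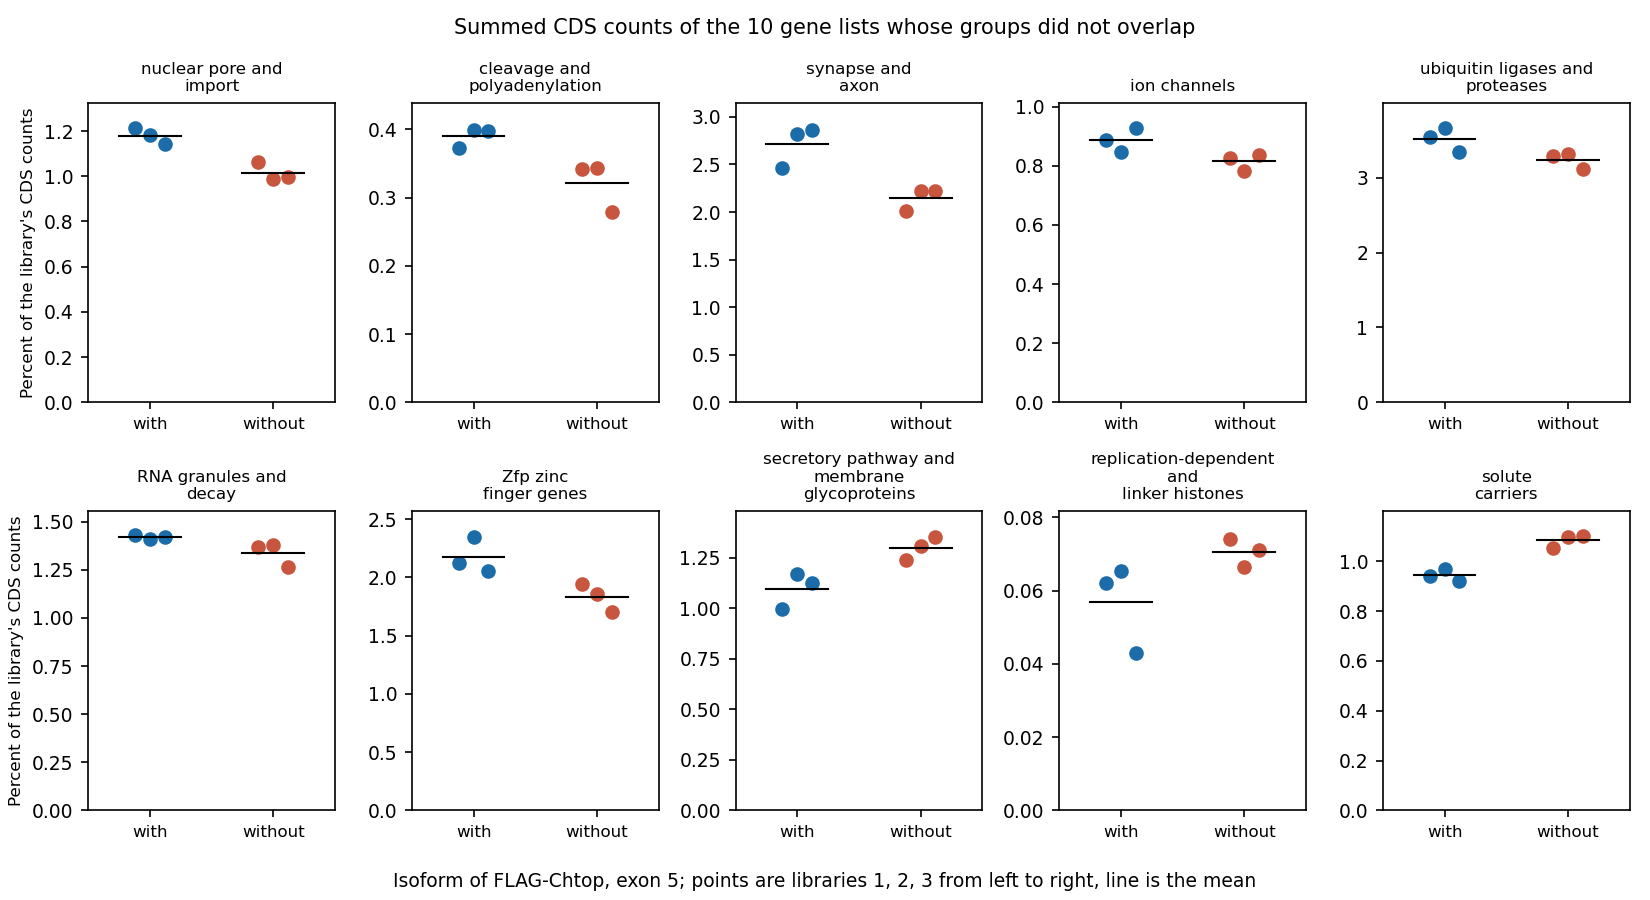
Percent of each library's CDS counts (y axes, each from 0) taken by the 10 gene lists whose libraries did not overlap between the isoforms, with exon 5 in blue and without in red. Points are libraries and lines are means, and the lists were picked for this pattern, so the plot describes it without a test.

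The difference varied with CDS length to a small degree. With well-counted genes in 5 equal groups by CDS length, the median log2 fold change was -0.07 in the shortest group (201 to 1862 bases) and 0.09 in the longest (4572 to 30308 bases). In the longest group 11.97% of genes were higher and 8.45% lower without overlap, against 7.79% and 7.68% of all well-counted genes. The longest group also held more counts, with a median of 297 against 75.1 in the shortest, so length and depth moved together here.

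Whether a difference lay in the CDS as such or in the whole transcript was asked from the 3′ and 5′ UTR counts of the same genes. The CDS held 66.1%, 67.0% and 68.5% of all counts over gene parts with exon 5, and 66.7%, 67.5% and 68.9% without. The means were 67.2% ± 1.22 and 67.7% ± 1.11 (SD, n = 3 each), a difference of -0.45 percentage points (two-sided exact permutation test, p = 0.60, the smallest possible p being 0.10). The 3 inputs are lysate RNA of the same size range, 1 from each Chtop line and 1 from a line with FLAG-GFP. In them the CDS held 47.7% (line without exon 5), 46.9% (line with exon 5) and 45.4% (FLAG-GFP).

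Within genes, the 3′ UTR of the leading genes did not always lie as far apart as the CDS. Its counts were put on the scale of the CDS levels (the same library totals), for description only. Of 12 leading genes (Huwe1, Map1b, Zfhx4, Apc, Dlc1, Scn2a, Snrnp70, Dock4, Neo1, Rtn4, Agrn and Hjurp), 9 had 3′ UTR counts in both groups, and the 3′ UTR was higher without overlap in 1, lower in 2 and overlapping in 6.

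For Map1b and Hjurp the 3′ UTR stood apart much as the CDS did. The Map1b 3′ UTR was at 2882, 4234 and 3536 with exon 5 and 2020, 2704 and 2098 without, a log2 ratio of means of 0.64 against 0.76 in the CDS. The Hjurp 3′ UTR was at 1302, 1316 and 1149 against 2060, 2765 and 2194 (-0.90, and -0.83 in the CDS). Neo1 also had no overlap, at 168, 192 and 123 against 250, 217 and 244, with a smaller distance in the 3′ UTR (-0.56) than in the CDS (-1.48).

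For other leading genes the 3′ UTR groups overlapped. Dock4 was at 222, 290 and 408 in its 3′ UTR with exon 5 and 318, 461 and 308 without (-0.24, against -1.06 in the CDS). Rtn4 was about level, at 116, 48.9 and 77.3 against 89.6, 106 and 36.7 (0.06, against -1.64 in the CDS). Apc had a 3′ UTR log2 ratio of 0.31 against 1.10 in the CDS, and Snrnp70 0.25 against 1.10. Dlc1 had -0.25 against 2.66 in the CDS. Its 3′ UTR was sparse, with 0, 14 and 0 counts with exon 5 and 5, 10 and 5 without. Huwe1 had 0.89 against 0.85 in the CDS, on 27 to 103 3′ UTR counts a library. Whether the CDS and the 3′ UTR of these genes differ from each other was tested only by the part-use tests, across all genes.

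The part-level test of edgeR sets the CDS against the whole gene, so it has little room where the CDS holds nearly all counts, as in Huwe1. With edgeR it called 0 of 3859 coding sequences (0%; 16, or 0.415%, at an unadjusted p under 0.05). The gene-level test of edgeR, chosen after the part-level test recovered few changed genes in simulated data, called 0 of 3882 genes (0%; 140, or 3.61%, at an unadjusted p under 0.05).

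The authors' deposited table sorts CDS entries into a class of both isoforms (3819), a class with exon 5 (336) and a class without (377). By its name, the sorting rests on a log2 fold change cutoff and the same direction in all replicates. A class therefore does not say that the other isoform held no RNA of the gene. In the edgeR fit 0 of each class passed the adjusted threshold. Of the 329 tested genes in the class with exon 5, 236 were higher without overlap, and of the 351 tested in the class without, 230 were lower without overlap. Both classes were sparser, with a median of 35.7 and 33.5 counts a gene against 72.7 for genes of both isoforms, and the classes were made from these same libraries, so the counts describe them and test nothing. The authors' deposited table gives log2 fold changes of 0.87 for Huwe1 and 0.78 for Map1b, both in the class of both isoforms. It gives 1.11 for Apc, in the class with exon 5, and -1.04 for Dock4 and -1.46 for Neo1, in the class without.

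RNA level in each line can be noted from 1 input library per line, of 53356 CDS counts (line without exon 5) and 81283 (line with exon 5). With 1 library each there is no test, and the 95% intervals here are exact Poisson intervals that cover counting error only. Vgf, lower with exon 5 in the immunoprecipitates, was also lower in the input of that line, with 180 counts (154.7 to 208.3; 2214 CPM) against 798 (743.6 to 855.3; 14956 CPM) in the line without. Neo1 (726 against 2343 CPM) and Rtn4 (271 against 1293 CPM) likewise had the lower input in the line with exon 5. Dock4 went the other way, with 131 counts (109.5 to 155.4; 1612 CPM) in the line with exon 5 and 9 (4.115 to 17.08; 169 CPM) in the line without. Hjurp (1169 against 262 CPM) and Slc3a2 (1329 against 412 CPM) also had the higher input in the line with exon 5, where their immunoprecipitates were lower.

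For Huwe1 the input was 2633 CPM in the line with exon 5 and 3992 CPM in the line without, opposite to its immunoprecipitates, and for Map1b it was 4700 and 3767 CPM. Chtop had 4 counts in the input of the line with exon 5 and 59 in the line without. Among well-counted genes with at least 10 counts in both inputs, the input was higher in the line with exon 5 for 251 of 663 (37.9%). The same held for 28 of 58 genes higher in the immunoprecipitates without overlap (48.3%) and for 29 of 62 lower ones (46.8%). The floor of 10 counts is a higher CPM in the shallower input, that of the line without exon 5. It thus favours genes that are higher in that input. The part of RNA level in the differences was not tested.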

How the data were processed

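Raw CDS and UTR counts per gene, as deposited by the authors, were used unchanged. The submitters' processing notes name mm10, TopHat2 and DESeq2. The sources used here do not state the counting tool, strand handling or whether reads were collapsed by their random primer bases, so counting intervals may be too narrow. The authors' deposited table of comparisons gave CDS log2 fold changes and isoform classes, and 9 columns of per-sample values were not used. Gene coordinates come from RefSeq's GRCm38.p6 table, matched by symbol, and 11718 genes had a symbol.

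Libraries were grouped by title. The 6 immunoprecipitates were fitted with edgeR 4.0.16 in R 4.3.3 (robust quasi-likelihood, TMM, no covariate, genes kept by filterByExpr at 10 counts and a total of 15), with Benjamini-Hochberg adjustment at 0.05. Scripts were tested on simulated data. Use of the CDS against the UTRs of a gene was tested with diffSpliceDGE. Alternatives were DESeq2 1.42.0, limma-voom (limma 3.58.1), other scalings and filters, a length trend, a replicate block and leaving out each library. Named genes were Chtop, the 10 most counted, the 10 highest and 10 lowest well-counted genes without overlap, the 5 with intervals closest to 0 and up to 4 per list. Genes and lists were chosen with earlier results of these data known. The labels say that replicates are separate cultures only in calling them independent, and p-values measure the spread between these libraries. A few genes that the rule names are not reported here.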

Additional observations from a re-analysis of the deposited data

How the results depend on the processing

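The isoform difference in CDS counts was 0 coding sequences past the threshold in edgeR as reported, and it depended on the tool and filter. It was 26 with DESeq2, 7 with limma-voom and 23 in edgeR with no filter on low counts. It was 0 in edgeR with DESeq2's size factors, library size alone, whole-gene library sizes or a mean of at least 50 counts. It was also 0 with a length trend removed and without each of the 6 libraries. As a share of genes tested in these settings, those with an unadjusted edgeR p under 0.05 were fewest without library 3 without exon 5 (296 of 6928). They were most with a mean of at least 50 counts (281 of 2843). The cause of the different counts was not tested. The test of part use within genes gave 0 calls in every setting run.

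With the replicate number as a block the count was 12, and it was 12 with the replicate block and the length trend together. Plec, Ahnak and Vgf, whose groups overlapped, were among the 12 in both, with edgeR adjusted p-values of 0.000259, 0.0488 and 0.00218 with the block, against 0.665, 0.920 and 0.665 without it. Over 2843 genes, deviations of same-numbered libraries from their group means correlated at 0.04, 0.02 and 0.05. Some library-wide values did follow the number in both groups. The CDS share of counts rose from library 1 to library 3 in each. With exon 5, the 10 largest CDS counts made up 5.265%, 6.683% and 6.625% of CDS counts in libraries 1, 2 and 3. Without exon 5 they made up 5.365%, 6.544% and 6.623%. The labels do not say that a number marks a day shared by both lines. The numbers were therefore not taken to pair the libraries, and whether they do was not tested.

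The isoform difference in CDS share of counts, -0.45 percentage points, ranged from -1.11 to 0.14 when 1 library was left out. It turned to 0.09 without library 1 with exon 5 and to 0.14 without library 3 without exon 5. Between libraries of the same number the difference was -0.53, -0.51 and -0.31 percentage points for libraries 1, 2 and 3. The share rose from library 1 to library 3 in both groups, so leaving out 1 library leaves the groups unevenly matched in number. As the numbers were not taken to pair the libraries, these differences are a description only.

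Of 141 named genes fitted, 122 kept their direction in each alternative run for them, out of 16. The log2 fold changes that reversed were mostly near 0. Cacna1b turned to 0.017 with a mean of at least 50 counts and 0.0077 with the replicate block, and Celsr3 to 0.0031 with that mean. With no filter, the length trend, and the replicate block with the length trend, Dst turned to -0.018, -0.15 and -0.16, Hectd4 to -0.011, -0.063 and -0.058, and Prrc2c to -0.037, -0.051 and -0.051. Hectd4 was -0.0026 with limma-voom and Prrc2c -0.0040 with whole-gene library sizes. Syne2 was -0.086 with the length trend and -0.092 with the block as well. Leaving out 1 library gave ranges that crossed 0 for Cacna1b (-0.17 to 0.22), Carm1 (-0.24 to 0.89), Celsr3 (-0.13 to 0.0012), Cnot3 (-0.25 to 2.37), Cox4i1 (-1.69 to 0.36), Ddx5 (-0.075 to 0.21), Dst (-0.23 to 0.22), Hectd4 (-0.070 to 0.10), Hsp90b1 (-0.35 to 0.21) and Irs2 (-0.075 to 0.31). The same held for Kmt2d (-0.21 to 0.073), Mki67 (-0.52 to 0.011), Ncbp1 (-0.080 to 0.71), Prmt7 (-0.73 to 0.21), Prrc2c (-0.049 to 0.029), Prune2 (-0.31 to 0.059), Psmd11 (-0.13 to 0.85), Srrm3 (-0.14 to 1.26) and Syne2 (-0.099 to 0.14). The cause was not tested.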

Other observations

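In 12 tested coding sequences every library with exon 5 was at 0, and in 0 the reverse held. The 12 passed the filter on low counts only through their libraries without exon 5, so their number tests nothing. Among genes not tested both patterns occurred, with Use1 at 0 in each library with exon 5 and Fstl4 at 0 in each library without. The 12 were sparse, with 11 of them named in the tables. Paqr3, a membrane protein of the Golgi that sequesters Raf kinase, had 18, 45 and 94 counts without exon 5 (64.3 ± 20.2 CPM, SD, n = 3). Against the level of 3 counts per library it was at least 13.0-fold lower with exon 5 (edgeR adjusted p = 0.345). Its 3′ UTR had 0, 14 and 17 counts with exon 5 and 5, 6 and 47 without, so 2 libraries with exon 5 held counts on that gene outside its CDS. The others were Pitpnb, Snx10, Cir1, Vps4a, Tasp1, Frs3, Eif1ad, Eno3, Mrto4 and Egfl7, with lower bounds from 9.49-fold for Pitpnb to 5.12-fold for Egfl7 and edgeR adjusted p-values of 0.421 to 0.630. Both inputs were at 0 for Paqr3, Pitpnb, Vps4a, Frs3, Eif1ad, Eno3 and Mrto4. The 3 libraries with exon 5 had a CDS count in 7833 to 8043 genes and those without in 7952, 9292 and 9372 genes, and the latter included the deepest library of the 6. These genes were chosen after their values were seen.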
